A study of Mus musculus with 2 samples.

Results

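Among the immune cells sorted from the mouse small intestine, the cells described here are gamma delta T cells whose receptor transcripts include the delta chain V segment Trdv4. They were picked barcode by barcode from single-cell RNA counts. Barcodes with 500 genes or more were kept when no more than 10% of their unique molecular identifiers (UMIs, 1 per captured RNA molecule) came from mitochondrial genes. A kept barcode was a member with at least 1 UMI each of Cd3e, Trdc and Trdv4, at least 3 UMIs of the CD3 chains Cd3e, Cd3d and Cd3g together, and no UMI of Trac, the alpha chain constant gene. These criteria gave 265 of 20041 kept cells: 141 of 10790 in the unstimulated library and 124 of 9251 in the library given IL-23.

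Both 10x Genomics libraries came from small intestine of Il23r-eGFP mice, a knock-in in which the IL-23 receptor gene drives a green reporter, and live eGFP-positive cells were sorted from both. One library is labelled unstimulated, and in the other the sorted cells received recombinant mouse IL-23 for 2 h. Peyer's patches were cut away and the epithelium was stripped before digestion, so what was sampled is mainly the lamina propria, and gamma delta T cells without the reporter were outside the sort. The labels give no age, number of animals or incubation time of the unstimulated cells, and the protocol text of that sample also mentions the stimulation, so the condition of each library rests on its treatment label. With 1 library per condition there is no replicate and no test. Values are therefore given with 95% counting intervals (exact Poisson for sums, Clopper-Pearson for shares). These cover counting error only and not differences between animals or preparations. Intervals of sums and of ratios treat every UMI as independent, so they leave out differences between cells as well. They are too narrow where a few cells hold most UMIs of a gene. A level is in CPM, a gene's UMIs summed over the cells of a group and scaled to 1000000 UMIs of that group.

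A gamma delta T cell joins V, D and J segments into a gamma chain and a delta chain that are carried to the surface by CD3. In mice, some gamma delta T cells leave the thymus before or around birth already committed to IL-17, with the transcription factor MAF, the scavenger receptors of the Scart family and receptors for IL-23 and IL-1, so that cytokines alone can trigger them. Trdv4 is the delta segment that such fetal-derived cells pair with the gamma segment Tcrg-V6 in barrier tissues.

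The segments by which these cells are recognised are given here from the GENCODE M21 annotation of GRCm38. Each line is the last 90 bases of coding exon 2, 5′ to 3′ on the + strand, and capitals mark the tyrosine and cysteine codons that stand just before the junction. Trdv4 is at chr14:54075426-54075515 and Tcrg-V6 at chr13:19190840-19190929. Annotated antisense genes overlap Trdv4 (Gm30275), Trdc (Gm43434) and Tcrg-V6 (Gm31887), and the delta segment Trdv5 overlaps Trdc on the opposite strand. Whether the counting used strand is not given in the sources used here, so it is not known whether UMIs of each pair were kept apart.
Trdv4: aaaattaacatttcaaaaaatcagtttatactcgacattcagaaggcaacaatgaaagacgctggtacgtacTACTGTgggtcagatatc
Tcrg-V6: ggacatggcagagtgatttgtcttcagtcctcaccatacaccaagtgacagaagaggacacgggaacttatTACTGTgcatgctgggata

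The transcripts that chose the cells are described first, without comparison. A member held 1 to 28 Trdv4 UMIs (median 4) in the unstimulated library and 1 to 17 (median 3) in the IL-23 library. Just inside the criterion, 19 unstimulated and 37 IL-23 members had a single Trdv4 UMI. Trdc, the delta constant gene, had a median of 13 and 14.5 UMIs per member, and the CD3 chain sum a median of 7 and 9. Just outside, 7 and 5 cells met every criterion but had a CD3 sum of 1 or 2, 16 and 7 cells had a Trac UMI, and 4 and 3 cells had no Trdc UMI. Summed over members, Trdv4 stood at 849 CPM in the unstimulated and 418 CPM in the IL-23 library, and Trdc at 2113 and 1881 CPM.

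3 other groups of the same libraries serve for comparison. Trdv4-zero gamma delta T cells met the same criteria with no Trdv4 UMI (74 unstimulated, 89 IL-23). Their Trdc was sparser, with a median of 2.5 and 3 UMIs per cell against 13 and 14.5 in members. Only 23 and 33 of them had 5 or more Trdc UMIs, against 122 and 113 members. Their assignment as gamma delta T cells is thus less secure, and whether some are T cells with an undetected Trac transcript was not tested. Trac-positive T cells met the CD3 criteria and had a Trac UMI (175 and 107). Cells with no CD3 chain UMI (10075 and 8583), most of the sorted cells, show what is found where no T cell receptor complex was detected. Members made up 65.6% (58.8 to 71.9) of the gamma delta gate in the unstimulated library and 58.2% (51.3 to 64.9) in the IL-23 library, intervals that overlap. They were 31.5% and 31.4% of all cells of the CD3 gate and 1.31% and 1.34% of kept cells. With members held to at least 2 Trdv4 UMIs, the gamma delta shares were 56.7% and 40.8%, so the closeness of the shares depends on the single-UMI cells.

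Depth differed between the groups and libraries, which bears on every share of cells with a UMI. Members had a median of 6147 UMIs and 2199 genes per cell unstimulated and 7395 UMIs and 2430 genes with IL-23, with 976205 and 1007082 UMIs in all. Trdv4-zero cells had medians of 6260 and 6900 UMIs and Trac-positive cells 6851 and 8423. The libraries shared 29 barcodes, 25 of them kept and none a member. Of the lists that mark other cells, most had low sums in the members. The B and plasma cell list summed to 18.4 and 12.9 CPM with Cd79a and Ms4a1 at 0, and the macrophage list to 8.20 and 3.97 CPM with C1qa, C1qb and C1qc at 0. The dendritic cell list summed to 13.3 and 2.98 CPM, and the epithelial list to 9.22 and 10.9 CPM with the keratins at 0. Of the mast cell list only Kit was present (214 and 90.4 CPM), with Cpa3, Mcpt1, Mcpt2 and Fcer1a at 0. The stroma and endothelium list summed to 51.2 and 52.6 CPM, all from Pecam1, and the ILC2 list to 57.4 and 35.7 CPM. The ILC3 list, which includes Il22, Kit, Cd93 and Klrb1b, was high, at 2273 and 13304 CPM in members against 8103 and 28564 CPM in cells with no CD3 chain UMI. All 10 of its genes had a UMI in unstimulated members and 9 in IL-23 members, and the part of such cells in the members' values was not tested. No doublet caller was run, and 2 unstimulated and 6 IL-23 members exceeded 15000 UMIs.

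The gamma chain transcripts of the members were mainly those of the Tcrg-C1 cluster and, where a V segment was caught, Tcrg-V6. Tcrg-C1, the constant gene that Tcrg-V6 joins to, had a UMI in 89.4% of unstimulated and 88.7% of IL-23 members, at 647 and 494 CPM. In Trdv4-zero cells the shares were 62.2% and 77.5%, in Trac-positive cells 28.6% and 30.8%, and in cells with no CD3 chain UMI 9.86% and 10.8%. The members' intervals lay above those of the Trac-positive cells in both libraries, and above those of the Trdv4-zero cells in the unstimulated one (83.1 to 93.9% against 50.1 to 73.2%), while with IL-23 they overlapped.

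Tcrg-V6 itself was caught in 32 of 141 unstimulated members (22.7%, 16.1 to 30.5) and in 21 of 124 with IL-23 (16.9%, 10.8 to 24.7). The matching shares were 6.76% and 5.62% in Trdv4-zero cells, 2.86% and 0.935% in Trac-positive cells and 0.784% and 0.256% in cells with no CD3 chain UMI. Of the members in which any gamma V segment was caught, Tcrg-V6 was among them in 32 of 48 (66.7%) and in 21 of 30 (70.0%). In Trdv4-zero cells this was 5 of 13 (38.5%) and 5 of 15 (33.3%). In Trac-positive cells it was 5 of 13 (38.5%) and 1 of 11 (9.09%). Of the 48 unstimulated members 8 held 2 or more gamma V segments, and none of the 30 IL-23 members did. The other gamma segments were sparser: Tcrg-V5 in 7.80% and 4.84% of members, Tcrg-V4 in 5.67% and 1.61% and Tcrg-V1 in 4.26% and 0.806%. Another delta segment was caught in 3 unstimulated members and 1 IL-23 member, 2 of the former with Trdv5. Thinning every cell to 3000 UMIs, which left out none of the members, gave Tcrg-V6 shares of 10.6% and 7.26% in members against 6.94% and 1.15% in Trdv4-zero cells.

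Constant genes of other chains were also present. Tcrg-C2 had a UMI in 32.6% and 24.2% of members and in 37 of 74 and 31.5% of Trdv4-zero cells. Tcrg-C4 had one in 34.0% and 38.7% of members. The beta constant genes Trbc1 (117 of 141 and 93 of 124 members) and Trbc2 (85.8% and 81.5%) were detected in most members, and Trbc1 had a UMI in 44.1% and 44.6% of the cells with no CD3 chain UMI. The list of 7 alpha beta T cell genes includes Trac. The list summed to 1470 and 1067 CPM in members, against 1861 and 1796 CPM in Trac-positive cells. The criteria fixed Trac at 0 in members and required it in Trac-positive cells, where it stood at 360 and 391 CPM. Part of the difference between these sums was thus set by the choice of cells. In cells with no CD3 chain UMI the list summed to 491 and 376 CPM. Of this list, Foxp3, which marks regulatory T cells, was at 0 in both libraries of members. Cd4 was at 0 in unstimulated members only, and Cd8a and Cd8b1 in IL-23 members only. The part of alpha beta T cells in the members was not tested.

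**Figure D1:**
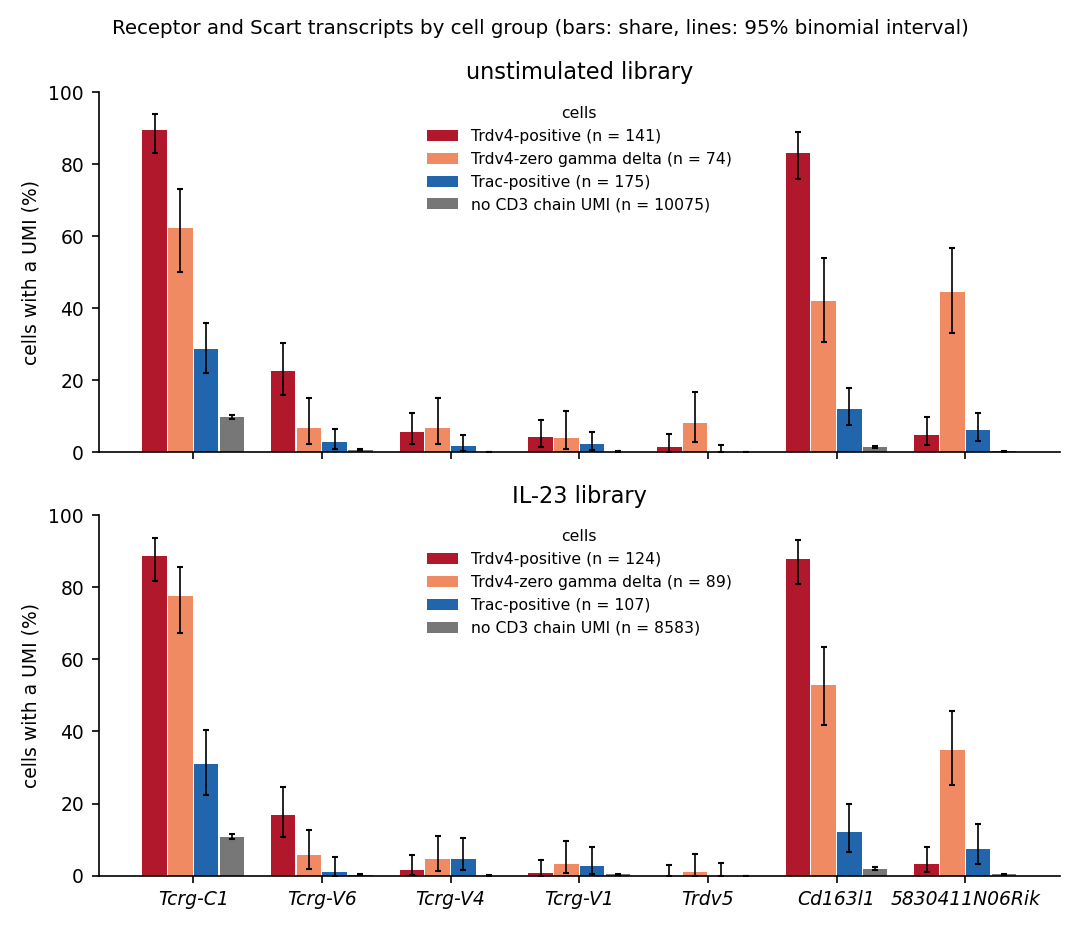
Share of cells with a UMI (y axis, percent) of 5 receptor segments and the 2 Scart genes (x axis) in 4 cell groups, unstimulated library above and IL-23 library below. Bars are shares and lines 95% binomial intervals. Tcrg-C1 (89.4% and 88.7%) and Cd163l1 (83.0% and 87.9%) stand highest in Trdv4-positive cells in both libraries, and 5830411N06Rik stands highest in Trdv4-zero cells (44.6% and 34.8%).

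Cd163l1 was detected in a larger share of members, and 5830411N06Rik in a larger share of Trdv4-zero cells. These 2 genes encode SCART1 and SCART2, scavenger receptor proteins that are known as surface markers of IL-17-committed gamma delta T cells. Cd163l1 had a UMI in 117 of 141 unstimulated members (83.0%, 389 CPM) and in 109 of 124 IL-23 members (87.9%, 343 CPM). In Trdv4-zero cells it was found in 41.9% (202 CPM) and 52.8% (210 CPM), in Trac-positive cells in 21 of 175 and 13 of 107, and in cells with no CD3 chain UMI in 1.53% and 1.96%. The levels of members were 1.93-fold and 1.64-fold those of Trdv4-zero cells and 8.03-fold and 8.94-fold those of Trac-positive cells.

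5830411N06Rik showed the opposite order. It was found in 7 unstimulated members (4.96%, 20.5 CPM) and 4 IL-23 members (3.23%, 12.9 CPM), against 44.6% (125 CPM) and 34.8% (116 CPM) of Trdv4-zero cells. The log2 ratio of members over Trdv4-zero cells was -2.59 and -3.13, and the counting intervals of the levels did not overlap in either library. The shares of members with 5830411N06Rik were close to those of Trac-positive cells (6.29% and 7.48%). Of the 7 unstimulated and 4 IL-23 members with 5830411N06Rik, 3 and 2 also had Cd163l1. These numbers are too small to show whether the genes part within members. Among Trdv4-zero cells the pair parted: 5830411N06Rik had a UMI in 3 of the 31 unstimulated cells with Cd163l1 (9.68%) and in 69.8% of those without it. In the IL-23 library these shares were 10.6% and 61.9%.

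The genes are neighbours on chromosome 7, in the same orientation, with 16138 bases between the end of Cd163l1 and the start of 5830411N06Rik. Because the pair stood in opposite order between members and Trdv4-zero cells, the 250 bases before each start are shown. They are from RefSeq (GRCm38.p6, 5′ to 3′ on the + strand), with Cd163l1 at chr7:140218017-140218266 and the first start of 5830411N06Rik at chr7:140247051-140247300. Capitals mark AGGTCA on either strand, a core motif of nuclear receptors. It is present once before 5830411N06Rik, as its reverse complement 238 bases before the start, and not in the window of Cd163l1. The motif is found in 14% of the 32851 windows of this length in the table, so a match is a description of the letters only.
Cd163l1: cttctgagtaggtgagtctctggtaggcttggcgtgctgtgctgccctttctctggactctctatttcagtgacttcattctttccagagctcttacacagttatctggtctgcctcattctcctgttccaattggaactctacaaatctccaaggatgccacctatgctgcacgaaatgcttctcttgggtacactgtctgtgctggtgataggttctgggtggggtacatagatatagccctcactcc
5830411N06Rik: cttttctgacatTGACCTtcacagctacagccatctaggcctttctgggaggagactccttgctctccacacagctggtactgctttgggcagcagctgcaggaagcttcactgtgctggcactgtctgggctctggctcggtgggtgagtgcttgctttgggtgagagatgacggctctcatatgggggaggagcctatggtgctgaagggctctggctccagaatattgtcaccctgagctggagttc

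The other genes known from IL-17-committed gamma delta T cells were present in members and mostly near their level in Trdv4-zero cells. Of 28 such genes (a list that includes both Scart genes), 22 were measured in both libraries, where a measured gene has at least 25 CPM in 1 or both groups and at least 40 UMIs over both. At a 2-fold limit in both libraries, none was higher in members, 1 (5830411N06Rik) was lower and 21 lay between. Their median log2 ratio was 0.12. Over all 4430 measured genes 0.361% were at least 2-fold higher in members in both libraries (16 genes), 0.339% were at least 2-fold lower (15 genes), and the median was 0.05. With cells thinned to 3000 UMIs these counts were 2 and 3. In the unstimulated library alone the shares were 2.74% and 1.13%, and in the IL-23 library alone 1.53% and 1.12%. Maf, a factor of the IL-17 programme, stood at 423 and 322 CPM in members and 441 and 337 CPM in Trdv4-zero cells. Rora was at 1460 and 1216 CPM and Cxcr6, a tissue homing receptor, at 1166 and 837 CPM in members. Sox13, an early gamma delta factor, had 9 and 6 UMIs in all.

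Ccr2, a receptor for inflammatory chemokines, was among the genes whose detection followed Trdv4 most closely. It stood at 555 and 815 CPM in members, 376 and 456 CPM in Trdv4-zero cells and 255 and 397 CPM in Trac-positive cells. It had a UMI in 78.7% and 91.9% of members against 52.7% and 67.4% of Trdv4-zero cells. Smox, a polyamine oxidase, had one in 82.3% and 93.5% of members against 59.5% and 69.7%. On the other side, Gimap5, a GTPase of lymphocyte survival, was found in 34.8% and 39.5% of members and in 60.8% and 61.8% of Trdv4-zero cells. Fyb, an adaptor of T cell receptor signalling, was found in 34.0% and 18.5% against 56.8% and 51.7%.

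The named genes that were higher in members than in Trdv4-zero cells had ratios near 2 to 3 in most cases. Anxa2, a membrane-binding annexin, was at 106 and 110 CPM in members and 35.3 and 45.9 CPM in Trdv4-zero cells. Sema6a, a transmembrane semaphorin, was at 66.6 and 62.6 CPM against 29.4 and 17.2 CPM. Zeb2, a zinc finger transcription factor of effector lymphocytes, was at 175 and 358 CPM against 80.4 and 152 CPM. Acpp, a phosphatase that makes adenosine from AMP, was at 551 and 462 CPM against 274 and 237 CPM. Nebl, Hs6st2 and Cand1 were also at least 2.22-fold higher in members in both libraries.

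Genes on the lower side included several receptors. Lilr4b and Lilrb4a, inhibitory receptors of the leukocyte immunoglobulin-like family, stood at 27.7 and 36.7 CPM and at 33.8 and 45.7 CPM in members, and at 99.96 and 263 CPM and 82.3 and 174 CPM in Trdv4-zero cells. These 2 genes are close copies of each other, and how the counting split their reads is not given. Jag1, a Notch ligand, was at 36.9 and 54.6 CPM against 104 and 165 CPM. Il21r, the IL-21 receptor, was at 21.5 and 17.9 CPM against 120 and 57.4 CPM. Cd9, a tetraspanin, was at 24.6 CPM and, with 3 UMIs in all, 2.98 CPM in members against 78.4 and 56.0 CPM. Ldlrad4, an inhibitor of TGF-beta signalling, was at 34.8 and 27.8 CPM against 145 and 155 CPM. In each of these genes the counting intervals of both groups were apart in both libraries. Genes named against Trdv4-zero cells were chosen by the size of these same ratios. The separation of the intervals is thus a description and no separate support.

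**Figure D2:**
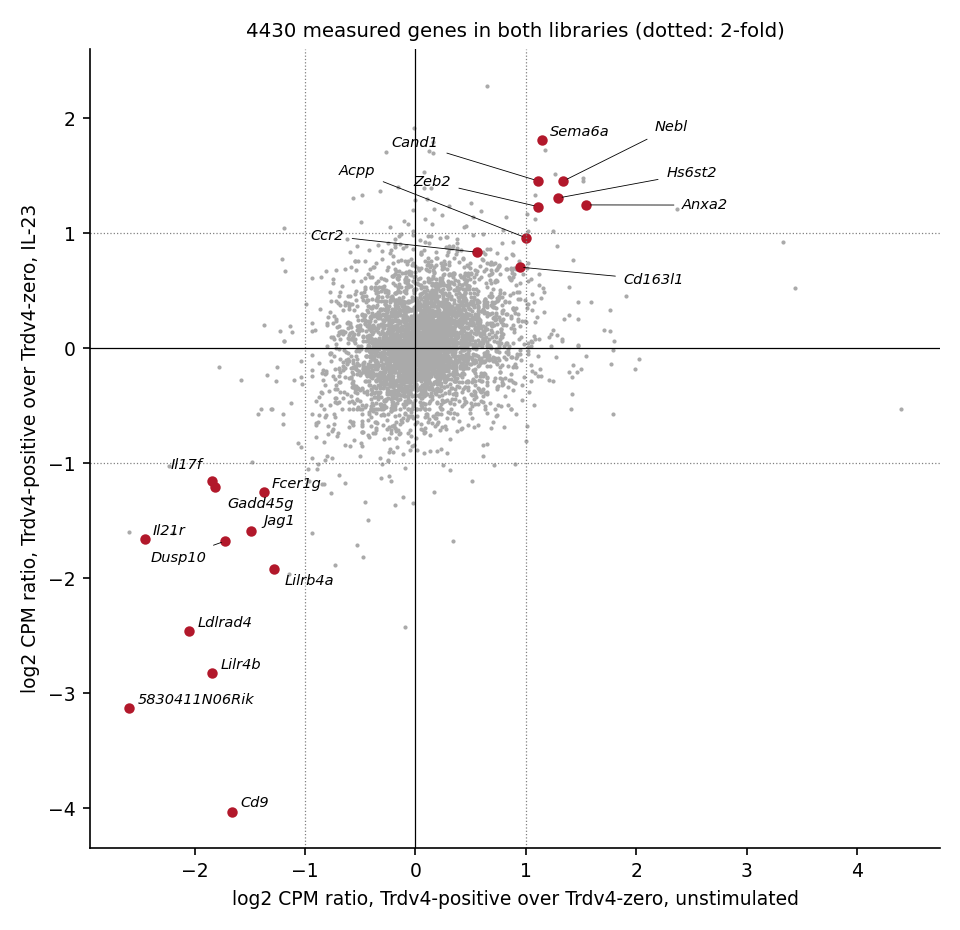
Log2 CPM ratio of Trdv4-positive over Trdv4-zero gamma delta T cells in the unstimulated (x axis) and IL-23 (y axis) libraries, 1 point per measured gene (4430), dotted lines at 2-fold. Named genes are red. Most points lie between the dotted lines in both libraries, with 5830411N06Rik, Cd9, Lilr4b and Ldlrad4 farthest to the lower left and Sema6a and Anxa2 to the upper right.

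Against Trac-positive T cells the members differed more. Of 4839 measured genes, 1.49% (72) were at least 2-fold higher in members in both libraries and 1.61% (78) at least 2-fold lower, counts that were 42 and 34 with cells thinned to 3000 UMIs. The unstimulated library alone had 2.72% higher and 3.23% lower, and the IL-23 library alone 3.63% and 3.59%. Of 22 T cell receptor signalling genes 17 were measured, of which 1 (Blk) was higher, 5 (Cd2, Cd5, Cd6, Lck and Trat1) lower and 11 between. The median log2 ratio of the 17 was -0.47, beside 0.03 over all measured genes. Blk, a Src kinase that gamma delta T cells with IL-17 use, was at 234 and 155 CPM in members, 151 and 116 CPM in Trdv4-zero cells and 43.4 and 24.6 CPM in Trac-positive cells. Lck, the Src kinase of most T cells, was at 7.17 and 13.9 CPM in members and 86.1 and 97.3 CPM in Trac-positive cells.

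Some adhesion and costimulatory receptors of conventional T cells had few or no UMIs in members. Of 21 checkpoint and costimulation genes 11 were measured, and 1 (Pdcd1) was higher in members in both libraries, 3 (Cd28, Cd40lg and Tnfrsf4) were lower and 7 lay between. Their median log2 ratio was -0.87. Among all 4839 measured genes, 1.49% were at least 2-fold higher in both libraries and 1.61% at least 2-fold lower. Icos, a costimulatory receptor, was among those between, at 1051 and 1552 CPM in members and 992 and 1232 CPM in Trac-positive cells. Cd2, which binds CD48 on partner cells, had no UMI in any of the 265 members and 136 and 225 CPM in Trac-positive cells. With 3 UMIs as the limit for each group of members, that is at least 44.2-fold and 75.6-fold higher in Trac-positive cells. Cd6 was also at 0 in both libraries of members, against 142 and 91.4 CPM. Cd5, a brake on receptor signals, had 1 UMI and 0 UMIs against 99.1 and 100.3 CPM. Cd28, the main costimulatory receptor, had 4 UMIs and 1 UMI, against 264 and 290 CPM. In Trdv4-zero cells Cd2, Cd5 and Cd28 were likewise at 1 UMI, 0 and 1 UMI in the unstimulated library and 1, 1 and 3 UMIs in the IL-23 library.

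Other genes stood the other way. Pdcd1, the inhibitory receptor PD-1, was at 331 and 143 CPM in members and 62.2 and 37.4 CPM in Trac-positive cells. Klrk1, the activating receptor NKG2D, was at 158 and 152 CPM against 61.5 and 60.9 CPM. Sema6a was at 66.6 and 62.6 CPM against 6.51 and 2.95 CPM, Edil3 at 86.0 and 102 CPM against 7.96 and 10.8 CPM and Cd93 at 238 and 148 CPM against 60.0 and 30.5 CPM. Of these, Cd93 was also high in cells with no CD3 chain UMI (214 and 166 CPM), and Edil3 was not (9.44 and 8.06 CPM). Ccr6, a homing receptor of many IL-17 producers, was at 12.3 and 10.9 CPM in members and 92.6 and 102 CPM in Trac-positive cells.

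IL-23 signals through IL-23R and IL-12RB1 and the kinases JAK2 and TYK2 to STAT3. All cells were sorted on the Il23r reporter, so the presence of Il23r follows from the sort. In unstimulated members Il23r was at 156 CPM with a UMI in 60.3% of cells, Stat3 at 786 CPM in 91.5% and Stat4 at 476 CPM. Il12rb1 was sparse, with 9 UMIs. In the IL-23 library Il23r was at 276 CPM in 79.8% of members, a ratio of 1.77 (counting interval 1.45 to 2.17), while Jak2 was at 67.5 CPM against 114 CPM and Stat3 at 848 CPM. None of the 7 measured genes of the chain reached 2-fold either way, and their median log2 ratio was -0.07.

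Between the libraries, the members had 5163 measured genes, of which 2.54% (131) were at least 2-fold higher with IL-23 and 2.40% (124) at least 2-fold lower, with a median log2 ratio of -0.05. With cells thinned to 3000 UMIs the counts were 80 and 81. In the list of 32 STAT3 and IL-17 programme targets 26 were measured: 14 were at least 2-fold higher, none at least 2-fold lower and 12 between. Their median log2 ratio was 1.40. They included Ahr, Batf, Bcl3, Cebpd, Gadd45g, Il1r1, Irf4, Jund, Myc, Pim2, Prdm1, Sbno2 and Socs3. In Trdv4-zero cells 11 of 24 measured genes of the list were higher and 2 lower (median 0.87), with 2.87% and 1.84% of all 3975 measured genes. In Trac-positive cells 12 of 26 were higher (median 0.80), with 1.56% of all 5191 measured genes higher and 1.98% lower. The difference between the groups has no test in this design.

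The factors with the highest ratios pair with each other on IL-17 and IL-22 genes. Batf, an AP-1 factor, had 18 UMIs (18.4 CPM) in 10.6% of unstimulated members and 303 UMIs (301 CPM) in 75.8% of IL-23 members, a ratio of 16.3 (10.1 to 27.9). Irf4, the partner of BATF, was at 15.4 CPM and 233 CPM, a ratio of 15.2 (9.02 to 27.6). It was at 122 CPM in IL-23 Trdv4-zero cells and at 5.74 CPM in cells with no CD3 chain UMI. Prdm1, which encodes BLIMP-1, was at 18.4 and 109 CPM.

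Sbno2 and Socs3 are both induced by STAT3, the latter as an inhibitor of the same receptors. Sbno2 was at 20.5 CPM unstimulated and 241 CPM with IL-23, a ratio of 11.8 (7.46 to 19.6), and in 12.8% and 73.4% of members. Socs3 was at 97.3 and 362 CPM, a ratio of 3.72 (2.96 to 4.72). Bcl3, a nuclear partner of NF-kB, was at 16.4 and 103 CPM, and Cebpd at 5.12 and 41.7 CPM. Not every target moved past the limit: Pim1 was at 1264 and 1445 CPM, Socs1 at 282 and 297 CPM and Socs2 at 379 and 214 CPM.

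The 250 bases before the starts of 4 genes that were at least 2-fold higher, all of which hold a motif and so do not stand for the other genes, are shown from RefSeq (GRCm38.p6, 5′ to 3′ on the gene's strand) because the promoters of STAT3 targets and of the Il17 genes are known to hold sites for STAT factors and nuclear receptors. Capitals mark TTCNNNGAA, the palindrome of STAT factors, and AGGTCA, the nuclear receptor core motif, on either strand. Socs3 (chr11:117969367-117969616, - strand) holds a TTCNNNGAA 154 bases before its start. The first start of Sbno2 in the table (chr10:80102703-80102952, - strand) holds one at 26 bases and an AGGTCA at 117 bases. Il17a (chr1:20730655-20730904, + strand) and Il17f (chr1:20784271-20784520, - strand) each hold 1 AGGTCA, at 120 and 58 bases. Of 15 genes with the highest ratios, all matched to the table, any start held TTCNNNGAA in 1 and AGGTCA in 6, against 8.13% and 15.8% of all 27025 genes of the table. Of the 14 higher STAT3 and IL-17 programme targets 10 were matched, of which 2 (Sbno2 and Socs3) held TTCNNNGAA and 1 (Sbno2) held AGGTCA. A match is not a bound site, and no enrichment was tested.
Socs3: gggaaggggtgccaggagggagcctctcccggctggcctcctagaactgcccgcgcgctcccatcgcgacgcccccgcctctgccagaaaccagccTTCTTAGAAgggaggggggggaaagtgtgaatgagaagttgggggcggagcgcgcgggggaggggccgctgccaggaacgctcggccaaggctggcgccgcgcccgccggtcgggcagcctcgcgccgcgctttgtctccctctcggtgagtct
Sbno2: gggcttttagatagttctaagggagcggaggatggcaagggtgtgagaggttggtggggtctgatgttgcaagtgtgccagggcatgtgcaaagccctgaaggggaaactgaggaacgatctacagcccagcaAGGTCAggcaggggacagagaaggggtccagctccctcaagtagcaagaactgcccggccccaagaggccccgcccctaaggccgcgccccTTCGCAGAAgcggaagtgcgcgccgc
Il17a: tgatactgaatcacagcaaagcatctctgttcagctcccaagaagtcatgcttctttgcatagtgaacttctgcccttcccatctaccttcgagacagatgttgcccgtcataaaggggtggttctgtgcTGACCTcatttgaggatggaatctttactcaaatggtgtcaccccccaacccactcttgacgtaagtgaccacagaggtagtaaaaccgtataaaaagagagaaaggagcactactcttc
Il17f: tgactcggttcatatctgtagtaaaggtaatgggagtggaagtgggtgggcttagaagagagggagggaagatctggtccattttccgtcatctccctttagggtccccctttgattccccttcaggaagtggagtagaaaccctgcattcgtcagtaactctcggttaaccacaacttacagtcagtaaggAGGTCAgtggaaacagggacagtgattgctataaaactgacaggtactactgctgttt

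**Figure D3:**
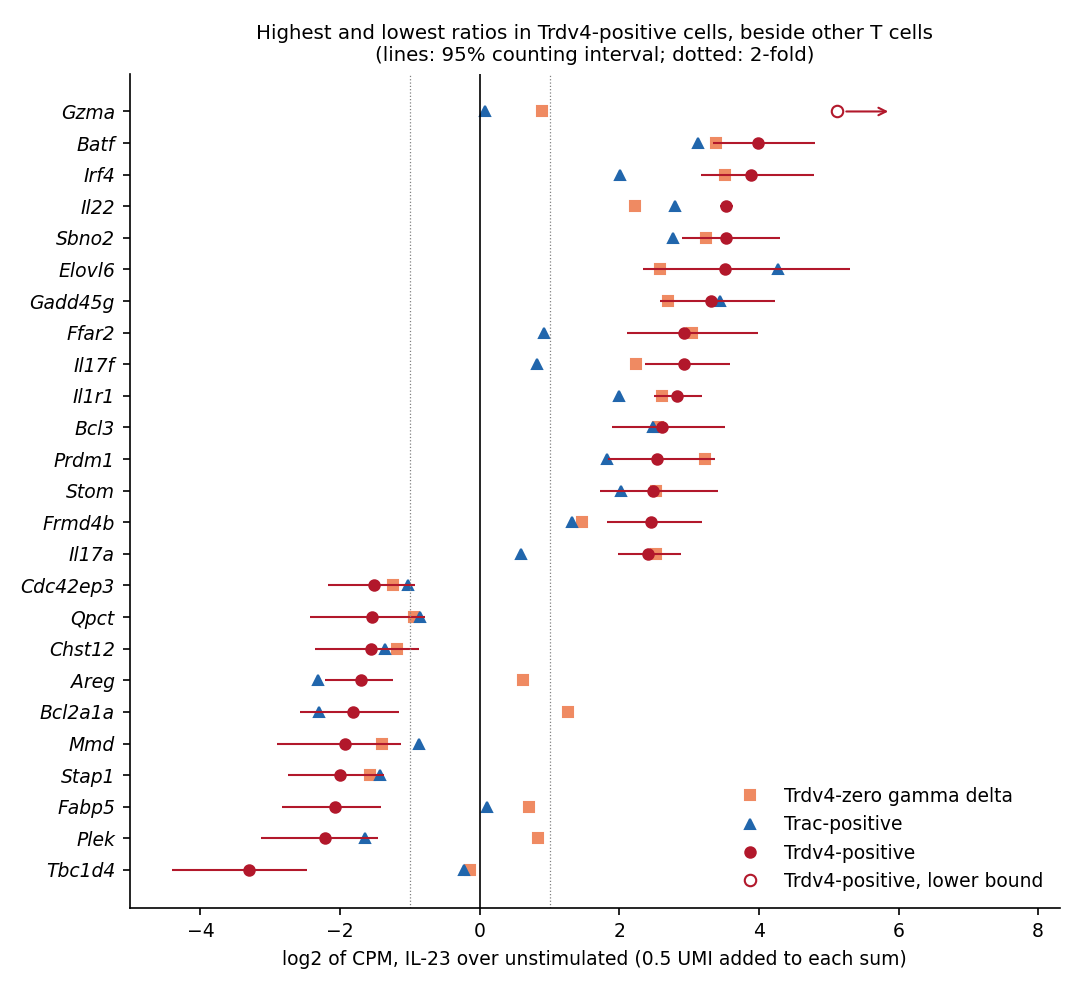
Log2 CPM ratio of the IL-23 over the unstimulated library (x axis) for the 15 highest and 10 lowest named genes of Trdv4-positive cells (y axis), with Trdv4-zero and Trac-positive T cells beside them. Lines are 95% counting intervals of the Trdv4-positive ratios, dotted lines mark 2-fold, and Gzma is drawn at its lower bound since it had no UMI in unstimulated members. Batf, Irf4 and Il22 lie to the right in all 3 groups, and Tbc1d4, Plek and Fabp5 are low in Trdv4-positive cells, where 1 unstimulated cell holds many of their UMIs.

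Of 25 effector cytokine genes 8 were measured, and 3 (Il22, Il17a and Il17f) were at least 2-fold higher with IL-23, 2 (Areg and Ltb) at least 2-fold lower and 3 between. Over all 5163 measured genes of members, 2.54% were at least 2-fold higher and 2.40% at least 2-fold lower. For the 8 cytokine genes the median log2 ratio was -0.13 and the mean 0.66, so these differ in sign. Il22, which acts on the epithelium, had the highest level. It was at 1049 CPM in unstimulated and 12124 CPM in IL-23 members, a ratio of 11.6 (10.8 to 12.3). Trdv4-zero cells were at 3140 and 14647 CPM and Trac-positive cells at 1098 and 7669 CPM. The Il22 log2 ratio of members over Trdv4-zero cells was -1.58 unstimulated and -0.27 with IL-23. In the unstimulated Trdv4-zero cells 1 cell held 481 of the 1602 Il22 UMIs, and the 8 highest held 74.4%. A UMI was found in 35 of these 74 cells, with a median of 0.

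Per cell, Il22 was uneven. In the unstimulated library 54 of 141 members had a UMI, the median was 0 and the highest cell had 231, and the 15 highest cells held 80.5% of all Il22 UMIs of members. With IL-23, 123 of 124 had a UMI, with a median of 33.5 and quartiles of 4 and 96, and 30 members had at least 100. Neither the share with a UMI nor the summed level can be read as the members' own expression alone. In 14 macrophages and B cells of the IL-23 library, which should not transcribe Il22, all had a UMI (range 1 to 550, median 7, median depth 6688 UMIs), and in 23 such cells of the unstimulated library the median was 0 and the highest cell had 176. Summed over these reference cells Il22 was at 835 CPM unstimulated and 6766 CPM with IL-23, and in the 6 IL-23 macrophages alone at 14649 CPM, above the members. Of the 124 IL-23 members, 80 were above the median of those reference cells and 7 above their highest. The part of free RNA or of doublets in the members' Il22 was not tested.

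Il17a and Il17f, which encode neutrophil-recruiting cytokines, were found in fewer cells than Il22. Il17a had 51 UMIs in 13 unstimulated members (52.2 CPM) and 282 UMIs in 25 IL-23 members (280 CPM), a ratio of 5.36 (3.97 to 7.37). 1 IL-23 member held 124 of the 282 UMIs, and without the cell holding most in each library the levels were 39.2 and 158 CPM. Il17f was at 27.7 CPM in 9 members and 214 CPM in 30 members, a ratio of 7.75 (counting interval 5.18 to 12). Cells with both genes numbered 3 of 141 and 14 of 124. In the reference macrophages and B cells Il17a had no UMI unstimulated and 1 UMI with IL-23. Il17f had 1 UMI there unstimulated, and with IL-23 96 UMIs in 2 of 6 macrophages (2144 CPM, above the members) and none in B cells. Their part in the members' values was not tested.

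Members held less of both genes than Trac-positive cells in either library. Trac-positive cells were at 397 and 598 CPM for Il17a and 310 and 545 CPM for Il17f, and the Il17a log2 ratio of members over them was -2.91 and -1.09. Against Trdv4-zero cells, Il17a was alike (56.8 and 331 CPM), and Il17f was lower in members in both libraries (99.96 and 478 CPM in Trdv4-zero cells).

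Ltb, a subunit of membrane lymphotoxin, was at 307 CPM in unstimulated and 149 CPM in IL-23 members. Areg, an epidermal growth factor family ligand of tissue repair, was at 157 and 47.7 CPM, with UMIs in 25 and 14 members and at most 33 in a cell. In Trdv4-zero cells Areg was at 167 and 257 CPM, where single cells held up to 46 and 75 UMIs. Hbegf, a ligand of the same family, was at 219 and 181 CPM in members and 62.9 and 41.3 CPM in Trac-positive cells. Csf2 had 9 UMIs and 3 UMIs. Ifng had no UMI in any member, which allows up to 3.07 and 2.98 CPM, while Trac-positive cells were at 13.0 and 26.5 CPM.

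**Figure D4:**
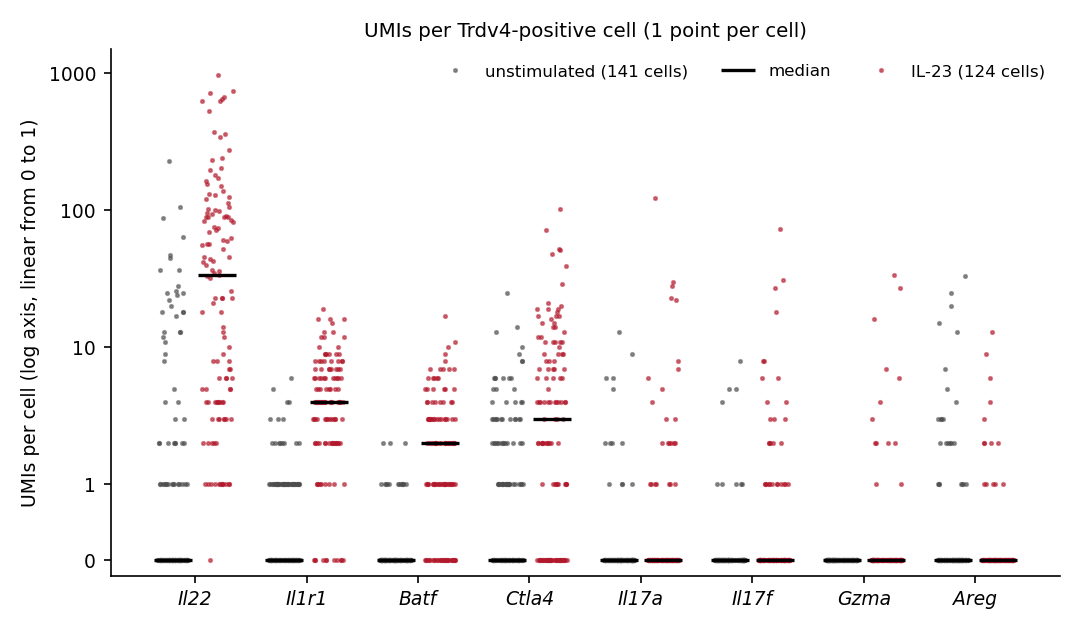
UMIs per Trdv4-positive cell (y axis, log scale, linear from 0 to 1) of 8 genes (x axis), 1 point per cell, grey for the 141 unstimulated and red for the 124 IL-23 cells, with black lines at the medians. The medians of Il22 (33.5), Il1r1 (4), Batf (2) and Ctla4 (3) are above 0 with IL-23, while those of Il17a, Il17f, Gzma and Areg stay at 0 and single cells reach high counts.

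Of 25 cytokine receptor genes 14 were measured, and 3 (Il1r1, Il17re and Il17ra) were at least 2-fold higher with IL-23, none lower and 11 between. Their median log2 ratio was 0.15. The shares over all 5163 measured genes were 2.54% higher and 2.40% lower. Il1r1, the signalling receptor of IL-1, was at 85.0 CPM in 38.3% of unstimulated members and 606 CPM in 91.1% of IL-23 members, a ratio of 7.12 (5.66 to 9.07). In the IL-23 library it stood at 423 CPM in Trdv4-zero and 279 CPM in Trac-positive cells. Il17re and Il17ra, subunits of IL-17 receptors, were at 26.6 and 86.4 CPM and at 48.1 and 122 CPM. Ffar2, a receptor of short-chain fatty acids, was at 12.3 and 97.3 CPM, a ratio of 7.92 (4.33 to 15.8), and at 15.9 and 30.5 CPM in Trac-positive cells. Itga4, an integrin chain, was at 54.3 and 21.8 CPM.

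Of 9 measured checkpoint and costimulation genes, Ctla4 was at least 2-fold higher, Pdcd1 at least 2-fold lower and 7 were between. All 5163 measured genes had 2.54% higher and 2.40% lower. Ctla4, which competes with CD28 for its ligands, was at 250 CPM in 70 of 141 unstimulated members and 954 CPM in 86 of 124 IL-23 members, a ratio of 3.82 (3.31 to 4.41). It was uneven among members, with up to 25 and 103 UMIs in a cell. In the unstimulated library 7 of 14 reference B cells also held Ctla4 UMIs, at 203 CPM against 250 CPM in members. The 9 reference macrophages of that library had none. With IL-23, Ctla4 had 5 UMIs in 2 of 8 reference B cells and 2 UMIs in 1 of 6 macrophages. The part of free RNA or of doublets in the members' Ctla4 was not tested. Pdcd1 was at 331 CPM in 58.2% and 143 CPM in 39.5%, a ratio of 0.432 (0.353 to 0.528). In Trdv4-zero cells Pdcd1 was at 174 and 148 CPM. Icos, a costimulatory receptor, was at 1051 and 1552 CPM and did not reach 2-fold.

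Cytotoxic genes appeared in a minority of the IL-23 members. Gzma, a granule protease, had no UMI in the 141 unstimulated members and 107 UMIs in 13 IL-23 members (106 CPM), at least 34.6-fold higher with 3 UMIs as the limit for the unstimulated group. A single member held 34 of these UMIs. In Trac-positive cells Gzma was at 175 and 184 CPM in 6 and 5 cells. In the IL-23 library 3 of 14 reference macrophages and B cells also held Gzma UMIs (6 in all), and their part was not tested. Gzmb was at 30.7 and 121 CPM, in 11.3% and 21.8% of members. Of 7 measured type 1 and cytotoxic genes these 2 were higher, none lower and 5 between. The median log2 ratio was 0.12, the same with Gzma at its bound. The shares over all 5163 measured genes were 2.54% higher and 2.40% lower.

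Of 14 survival genes 12 were measured, with 2 past 2-fold upward, 2 downward and 8 in neither direction. Their median log2 ratio was -0.19. Among all 5163 measured genes, 2.54% were at least 2-fold higher and 2.40% at least 2-fold lower. Fas, a death receptor, was at 8.20 and 43.7 CPM and Casp8 at 47.1 and 112 CPM, while Bcl2, which protects mitochondria, was at 128 and 52.6 CPM and Bcl2a1a at 82.0 and 22.8 CPM. Bcl2a1a is 1 of several near-identical genes, so its level is uncertain. Myc, a transcription factor of cell growth, was at 7.17 and 37.7 CPM. Of 13 measured glycolysis genes none reached 2-fold either way, with a median log2 ratio of 0.46. Ldha, a lactate dehydrogenase, was at 268 and 420 CPM. Elovl6, which elongates fatty acids, was at 5.12 and 63.5 CPM, a ratio of 12.4 (5.05 to 39.5). None of 12 measured T cell receptor signalling genes reached 2-fold (median -0.22), and of 15 immediate early genes Jund was higher, Nr4a3 lower and 13 between.

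For some of the lowest ratios a single cell held many of the UMIs. It was the same unstimulated member for Tbc1d4, Fabp5 and Plek, with 20516 UMIs in all against a median of 6147. Tbc1d4 was at 113 and 10.9 CPM, but 1 unstimulated member held 89 of its 110 UMIs, and without the top cell of each library the levels were 22.0 and 9.12 CPM. Fabp5, a fatty acid binding protein, was at 93.2 and 21.8 CPM with 70 of 91 UMIs in 1 cell, and at 22.0 and 18.0 CPM without it. Plek, a protein kinase C substrate, was at 75.8 and 15.9 CPM. It was at 54.4 and 13.0 CPM without its top cells, so most of its difference remained. Spread over more cells were Stap1, an adaptor, at 97.3 and 23.8 CPM in 34.0% and 12.9% of members, Mmd at 58.4 and 14.9 CPM, and Kit, the stem cell factor receptor, at 214 and 90.4 CPM in 51.8% and 39.5%.

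**Figure D5:**
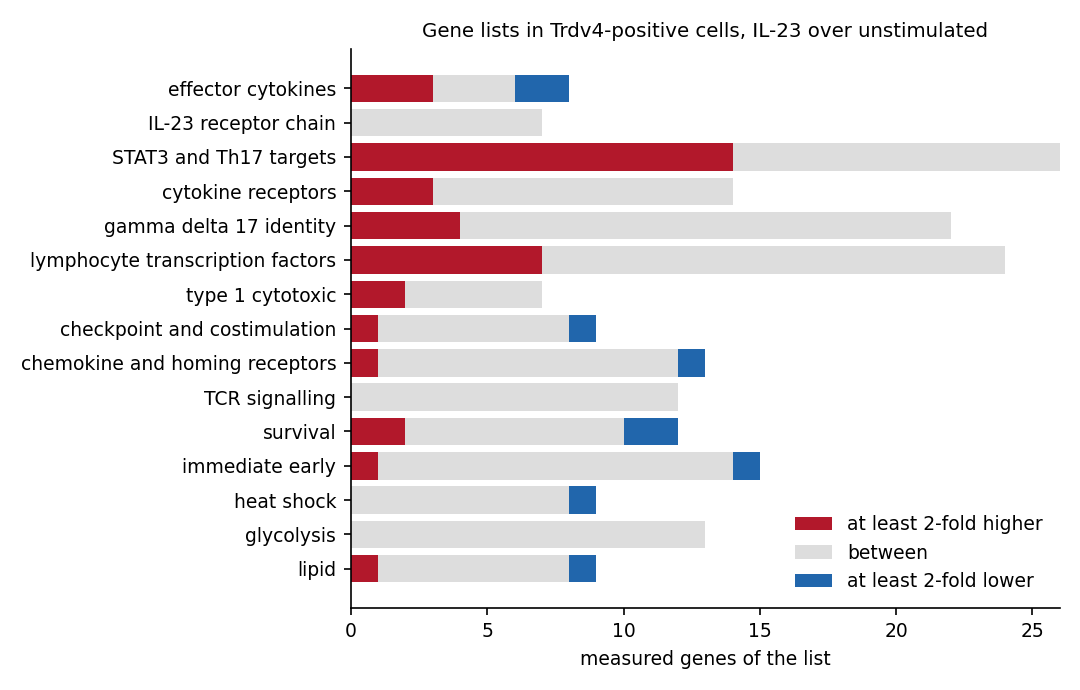
Number of measured genes (x axis) of 15 gene lists (y axis) in Trdv4-positive cells that were at least 2-fold higher with IL-23 (red), at least 2-fold lower (blue) or between (grey). The STAT3 and Th17 target list has 14 of 26 higher and none lower, and the T cell receptor signalling and glycolysis lists have none past 2-fold. Of all 5163 measured genes 2.54% are higher and 2.40% lower.

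The log2 response to IL-23 of members and of Trdv4-zero cells was also set side by side over the 3942 genes measured in both. It was larger in members by at least 1 for 1.98% (78) and smaller by at least 1 for 2.51% (99), or 38 and 48 genes with cells thinned to 3000 UMIs. Rcbtb2 was at 127 and 157 CPM in members and 80.4 and 31.6 CPM in Trdv4-zero cells. Ptgs2, a prostaglandin synthase, was at 127 and 186 CPM against 294 and 108 CPM. Swap70, a signalling adaptor, was at 33.8 and 161 CPM against 5.88 and 97.6 CPM, where the unstimulated Trdv4-zero value is 3 UMIs. Several differences rested on few cells: of the 196 unstimulated Isg15 UMIs in Trdv4-zero cells 105 were in 1 cell, and of the 55 Palld UMIs 30 were. The make-up of both groups also differed between the libraries. Members with a single Trdv4 UMI numbered 19 unstimulated and 37 with IL-23. Cd163l1 was found in 31 of 74 unstimulated and 47 of 89 IL-23 Trdv4-zero cells. A change in which cells each group holds cannot be told apart here from a change within cells. With 1 library per condition none of the differences in response was tested.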

How the data were processed

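The values the authors deposited are raw UMI counts for 32285 genes in 2 libraries of 11096 and 10440 barcodes. Per the submitters' processing notes the reads were processed with Cell Ranger 3.1.0 on mm10. The matrices name cellranger 6.0.0 per the file headers. Annotation, strand setting and cell calling: not given in the sources used here. UMIs were summed over the cells of each group and scaled to CPM by the group's total. Log2 ratios used 0.5 UMI added to each sum, and printed ratios none. Measured genes needed 25 CPM or more in a group and 40 UMIs over both, and were counted past 2-fold. Receptor segments, CD3 chains and 78 features with a repeated symbol were left out of counts.

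Named genes had at least 50 CPM and 10% of cells with a UMI in the higher group: the 15 highest and 10 lowest ratios with IL-23, 15 and 10 against Trdv4-zero cells, 12 and 8 against Trac-positive cells, 6 and 6 by difference in response, 8 by share of cells, and members of 29 gene lists. Some list members are not reported here. The members and lists were chosen with earlier results of these data known. No doublet caller was run and no doublets were removed. Reference cells for free RNA had no CD3 chain UMI and at least 5 C1q UMIs (macrophages) or 2 Cd79a UMIs (B cells). UMIs of T cell genes in such cells can come from free RNA or doublets, which were not told apart. Intervals are at 95%. The ratio script was tested on simulated data. Python 3.11.15 with numpy 2.4.6, scipy 1.17.1 and pandas 2.3.3 was used, and edgeR 4.0.16 for an alternative scaling (TMM). Alternatives covered cell filters, gate limits, depth, scaling, the measured limit and the fold limit. Gene positions came from GENCODE M21 (GRCm38), with 32235 features matched by identifier.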

Additional observations from a re-analysis of the deposited data

How the results depend on the processing

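No paired analysis was possible because each condition is 1 library and the result comes from no test. Of 130 alternative values of the shares and counts, 94 stayed within 1.5 times the count or inside the share's 95% interval. With at least 2 Trdv4 UMIs the member shares were 56.7% and 40.8%. The main counts (higher and lower) were 131 and 124 for the response, 16 and 15 against Trdv4-zero cells, 72 and 78 against Trac-positive cells, and 78 and 99 for the difference in response. In that order they were 80, 81, 2, 3, 42, 34, 38 and 48 with gated cells thinned to 3000 UMIs. With at least 10 CPM and 20 UMIs they were 240, 272, 36, 26, 113, 130, 245 and 283. With at least 50 CPM and 100 UMIs they were 68, 49, 2, 2, 42, 37, 10 and 13. With a 1.5-fold limit they were 403, 529, 83, 52, 201, 182, 334 and 371. The count higher against Trdv4-zero cells was 10 with a CD3 sum of at least 6 and 10 with 2 UMIs added. Thinning and the measured limits change how many UMIs and genes enter, and the fold limit how many pass. For other moves the cause was not tested.

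Of 1545 alternative values of single genes, 1512 stayed inside the 95% counting interval, 31 moved outside it and 2 reversed: the log2 response of Fabp5 was 0.33 with a CD3 sum of at least 6 and 0.041 without cells above 15000 UMIs. The latter leaves out the cell with 70 of its 91 UMIs, and for the former the cause was not tested. TMM scaling moved the median log2 response by 0.05. The Cd163l1-positive members and the values without each gene's top cell were chosen after seeing the data. Depth limits sparse genes most: Tcrg-V6 and Il12rb1 are near 1 UMI per cell or less, and a missing UMI does not show a missing transcript.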

Other observations

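Some regulators outside the IL-23 pathway are given here with their levels in the Trdv4-positive cells (members). Ikzf2, which encodes the Ikaros family factor Helios, was at 466 CPM in 77.3% of unstimulated and 672 CPM in 90.3% of IL-23 members, near the Trdv4-zero cells (378 and 558 CPM) and above the Trac-positive T cells (163 and 177 CPM). Klrb1b, an inhibitory receptor of the NKR-P1 family, was at 135 and 314 CPM in members and at 141 and 148 CPM in Trdv4-zero cells. Klf2, a factor that keeps lymphocytes circulating, was at 18.4 and 23.8 CPM in members against 88.2 and 48.8 CPM. Fos was at 241 and 278 CPM against 492 and 344 CPM. The list of 10 cell cycle genes summed to 219 and 212 CPM in members and 364 and 430 CPM in Trac-positive cells, with 3 or more UMIs in 30 and 22 members. Of 3 measured with IL-23, Mcm3 was at least 2-fold higher (15.4 and 33.8 CPM) and 2 lay between. Among all 5163 measured genes 2.54% were at least 2-fold higher. Mki67 was at 8.20 and 12.9 CPM in members and 28.9 and 94.4 CPM in Trac-positive cells.

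Trdv4 was also found in cells with no CD3 chain UMI, at 7.54 CPM in 3.29% of the unstimulated and 1.32 CPM in 0.757% of the IL-23 cells.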
